A study of Mus musculus with 11 samples.

Results

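The genes described are the pore-forming and accessory subunits of the voltage-gated calcium and sodium channels, measured by RNA-seq in cells sorted from mouse islets. They were taken from the deposited table by symbol: *Cacna1a* to *Cacna1i* and *Cacna1s* (calcium channel pores), the *Cacna2d*, *Cacnb* and *Cacng* genes (calcium channel accessory subunits), and every *Scn* gene with a number followed by a or b (sodium channel pores and beta subunits). This gave 40 genes of the 55401 counted, of which 32 passed the filter on low counts and were tested among 17424 genes. The other 8, among them *Cacng1*, *Cacng6* and *Cacng8*, stayed at or below 0.807 CPM (counts of a gene scaled to a common library total) in each of the 11 libraries.

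All libraries came from male C57BL6/J mice on chow, aged 10 weeks by the labels, that carried rat insulin promoter (RIP)-Cre, a STOP-tdTomato reporter and the Nnat-EGFP transgene. Cre driven by the insulin promoter switched on tdTomato in beta cells, eGFP reported the activity of the *Nnat* enhancer and promoter, and each replicate was 1 mouse. By replicate number, mice 1, 2 and 3 each gave a library labelled NNAT-positive beta cells, one labelled NNAT-negative beta cells and one of non-beta cells, and mouse 4 gave the beta cell libraries only. That a number means the same mouse in each fraction was assumed from the labels. A cell without tdTomato counted as non-beta whatever its type, so the non-beta libraries mix islet endocrine, vascular, stromal and other cells, and fewer cells of a type and less RNA per cell cannot be told apart in such bulk samples.

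Total counts ranged from 30420352 to 43238376 per library, where a count of 3, taken as the floor, came to 0.0986 CPM or less, a limit that covers counting error only. The 7 beta cell markers summed to between 178378 and 423850 CPM in the 8 beta libraries and to between 10391 and 25666 CPM in the non-beta libraries, with no overlap. The *Nnat* mRNA went against the labels. It measured 50.5, 46.4, 46.0 and 101 CPM in mice 1 to 4 where the label reads NNAT-positive and 74.8, 80.8, 66.5 and 153 CPM where it reads NNAT-negative, lower in the former in 4 of 4 mice (log2 fold change −0.62, SE 0.17, adjusted *p* = 0.444). Below, these are called the NNAT-positive-labelled and NNAT-negative-labelled libraries, and each direction drawn between them rests on that naming.

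Voltage-gated calcium channels open when the membrane depolarises and let in the calcium that triggers exocytosis, and in beta cells this step couples closure of the ATP-sensitive potassium channel to insulin release. A pore-forming alpha1 subunit sets the current type (L, P/Q, N, R or T), while the alpha2delta subunits carry the pore to the membrane, the cytoplasmic beta subunits shape its gating and traffic, and most gamma subunits are better known as partners of glutamate receptors. Voltage-gated sodium channels, built from 1 large pore subunit and small beta subunits, drive the upstroke of the action potential in neurones.

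To show the stretches of DNA behind some of the members, 4 promoter windows are printed, each running from 250 bases before to 50 bases after a RefSeq start on GRCm38.p6, 5′ to 3′ on the gene's own strand and with every CG in capitals. *Cacna1d* is shown because it was the only member called higher in beta cells and has 2 annotated starts that differ in base composition. *Scn9a* and *Scn7a* are shown because they are neighbours on chromosome 2 with the same strand, of which *Scn7a* was called lower in beta cells and *Scn9a* was not called.

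*Cacna1d*, start within the gene, minus strand, chr14:30353437-30353736: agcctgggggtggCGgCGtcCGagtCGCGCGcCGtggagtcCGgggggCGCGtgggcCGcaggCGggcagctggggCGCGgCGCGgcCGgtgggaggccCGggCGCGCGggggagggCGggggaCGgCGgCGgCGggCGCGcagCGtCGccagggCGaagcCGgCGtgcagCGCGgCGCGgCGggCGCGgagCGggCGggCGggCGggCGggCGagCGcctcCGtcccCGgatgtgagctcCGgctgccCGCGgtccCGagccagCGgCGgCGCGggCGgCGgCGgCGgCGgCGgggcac
*Cacna1d*, upstream start, minus strand, chr14:30491107-30491406: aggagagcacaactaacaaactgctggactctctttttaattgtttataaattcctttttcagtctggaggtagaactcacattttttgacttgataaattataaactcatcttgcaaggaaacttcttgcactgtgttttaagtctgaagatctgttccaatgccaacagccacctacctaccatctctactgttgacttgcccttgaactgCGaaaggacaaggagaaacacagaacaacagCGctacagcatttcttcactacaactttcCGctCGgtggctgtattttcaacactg
*Scn9a*, minus strand, chr2:66634913-66635212: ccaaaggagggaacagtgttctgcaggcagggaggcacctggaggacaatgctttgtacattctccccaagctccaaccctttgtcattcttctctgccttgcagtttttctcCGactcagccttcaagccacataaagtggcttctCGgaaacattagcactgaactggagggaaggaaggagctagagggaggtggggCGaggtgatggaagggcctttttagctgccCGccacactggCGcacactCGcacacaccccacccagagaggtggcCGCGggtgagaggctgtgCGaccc
*Scn7a*, minus strand, chr2:66784861-66785160: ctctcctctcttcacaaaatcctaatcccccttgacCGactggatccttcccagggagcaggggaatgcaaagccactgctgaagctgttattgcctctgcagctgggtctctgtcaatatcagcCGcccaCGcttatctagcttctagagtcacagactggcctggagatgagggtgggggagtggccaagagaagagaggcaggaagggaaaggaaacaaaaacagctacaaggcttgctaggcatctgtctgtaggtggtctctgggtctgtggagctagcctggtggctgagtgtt

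The inner *Cacna1d* window held 63 CG pairs, more than 99.97% of the 32851 RefSeq windows of this length, and the upstream one held 4. The counts per gene do not separate the transcripts that begin at either start. The *Scn9a* window held 9 CG pairs and that of *Scn7a* held 3, against a median of 7 over all windows. In all, 30 of the 40 members had a window, with 41 starts and a median of 9 CG pairs. The motif TATAAA, searched on both strands and free to overlap a CG count, lay in 4.88% of the members' windows and in 13.6% of all.

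**Figure D1:**
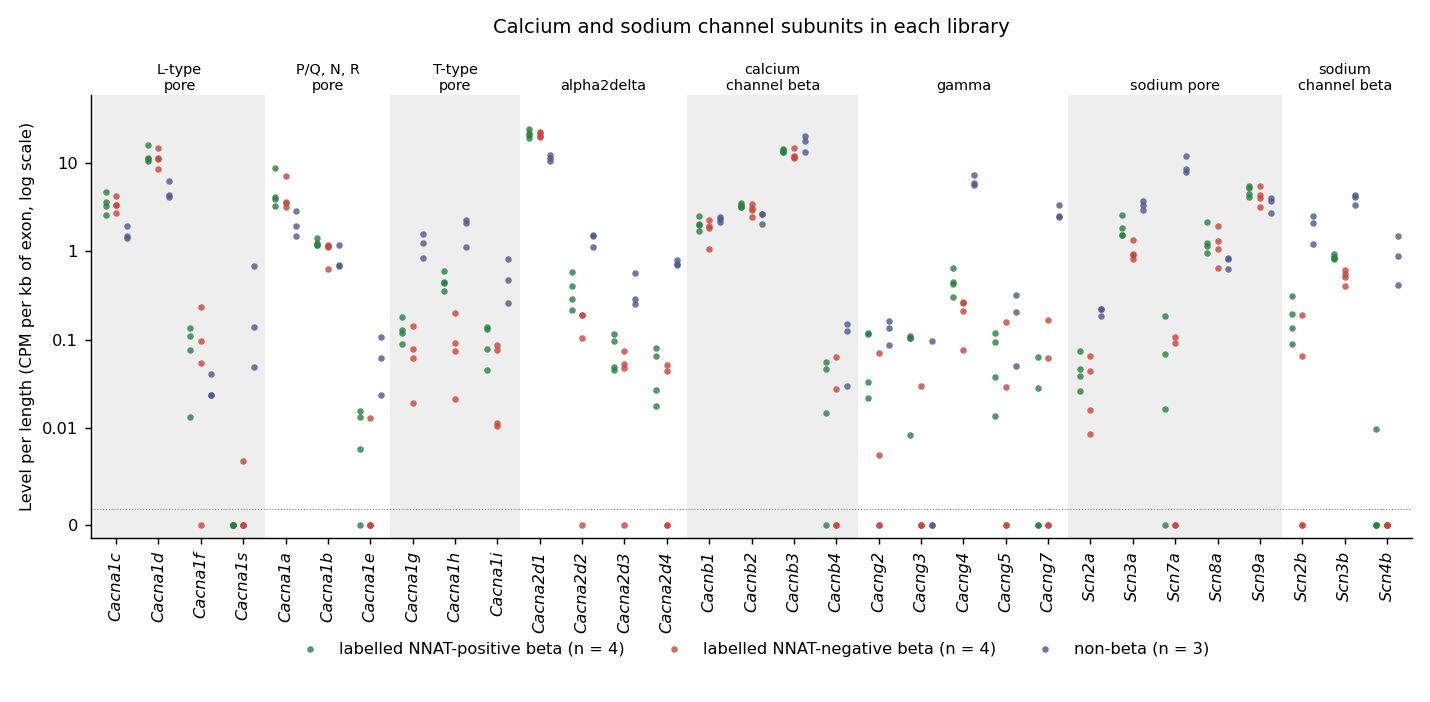
Level per length (CPM per kb of exon, log axis, with libraries at no count drawn at 0) of 31 tested members in each library. Points are single libraries, coloured by the labelled fraction, and shaded bands separate the subunit classes. The T-type pores, *Cacng4*, *Cacng7*, *Scn7a*, *Scn2b*, *Scn3b* and *Scn4b* sit higher in the non-beta libraries than in any beta library, and *Cacna1c*, *Cacna1d*, *Cacna1a* and *Cacna2d1* sit higher in each beta library.

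The first comparison set the mean of both beta fractions against non-beta cells, which asks which channel genes are more abundant in beta cells. More members were called lower than higher in beta cells, as was also so among all tested genes. With a Benjamini-Hochberg adjusted *p* under 0.01 and over 2-fold change required (edgeR's quasi-likelihood test), 1 of the 32 tested members was called higher, where 6.22% of all tested genes were. In the other direction 14 of 32 were called lower, where 18.9% of all tested genes were. *Scn4b*, *Cacna1s* and *Cacng7*, with 2, 1 and 26 counts in the 8 beta libraries, passed the filter only through the non-beta libraries. They could therefore be called lower or not at all, and they enter the median given below. The same filter acted on all tested genes. At the adjusted *p* alone, 4 members rose (*Cacna1a*, *Cacna1c*, *Cacna1d* and *Cacna2d1*) against 17.2% of all genes, and the same number of 14 fell against 23.9%. The median log2 fold change was −2.50 over the tested members and −0.10 over all tested genes. The members called lower included all 3 T-type pores, 3 sodium channel beta subunits, 2 of 4 alpha2delta subunits, 2 of 5 tested gamma subunits and 2 of 5 tested sodium pores, with none of the 4 calcium channel beta subunits. Leaving out mouse 2 raised the number called higher to 3, by adding *Cacna1c* and *Cacna2d1*. The members called lower numbered between 11 and 15 under the alternative fits at the same threshold, and 10 were called in every one.

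**Figure D2:**
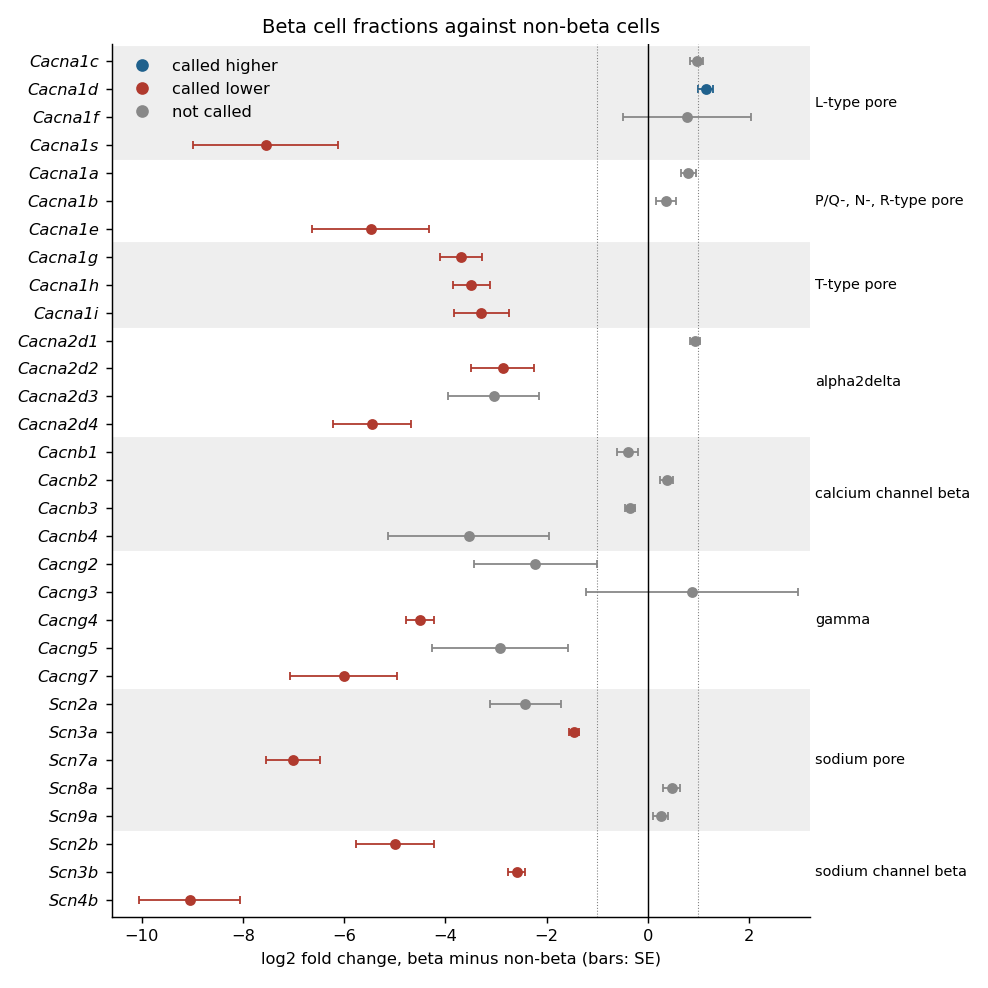
Log2 fold change of the mean of both beta fractions minus non-beta cells for 31 tested members, with SE bars, from the edgeR fit of 11 libraries. Blue marks the 1 member called higher, red the 14 called lower and grey the members that were not called, and dotted lines mark a 2-fold change in either direction.

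L-type channels carry most of the calcium current that drives insulin secretion. Among their pores, *Cacna1d* (CaV1.3; chr14:30039939-30491455, GRCm38) measured 135, 146, 139.7 and 203 CPM in the NNAT-positive-labelled libraries of mice 1 to 4. The NNAT-negative-labelled ones held 140.1, 109, 144 and 186 CPM and the non-beta libraries 51.7, 79.0 and 55.1 CPM. The 8 beta libraries did not overlap with the non-beta ones, and its log2 fold change of 1.14 (adjusted *p* = 8.38e-05, SE 0.14) stood under every alternative, at 1.01 to 1.36. Part of its exons, 589 bp, lie opposite those of *Chdh*. Since the library kit keeps strand but the strand setting of the counting is not given in the sources used here, reads of the 2 genes over this stretch cannot be told apart.

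*Cacna1c* (CaV1.2), the other main L-type pore, was read at 76.2, 69.5, 55.2 and 99.3 CPM in the NNAT-positive-labelled libraries. Its values were 70.5, 58.0, 71.3 and 90.7 CPM in the NNAT-negative-labelled ones and 31.3, 41.2 and 30.4 CPM in non-beta cells. The fractions again did not overlap between beta and non-beta, with a log2 fold change of 0.96 (adjusted *p* = 0.000160, SE 0.13), just short of 2-fold. *Cacna1s* (CaV1.1), the pore of skeletal muscle, had 1 count in all 8 beta libraries together and 4.48, 0.901 and 0.323 CPM in non-beta cells. The ratio of its count rates was 614 (95% interval 109 to 24340, counting error only), and the non-beta libraries spread over more than 10-fold among themselves. It lost its call without mouse 1, 2 or 3 and with DESeq2, at adjusted *p* values between 0.0118 and 0.0635. *Cacna1f* (CaV1.4), the pore of photoreceptors, lay between 0 and 2.12 CPM in beta libraries and between 0.212 and 0.367 CPM in non-beta cells and was not called.

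P/Q-, N- and R-type pores serve fast transmitter release in neurones. *Cacna1a* (CaV2.1, P/Q-type) held 45.0, 47.5, 37.2 and 99.5 CPM in the NNAT-positive-labelled libraries, 41.5, 40.2, 36.5 and 80.9 CPM in the NNAT-negative-labelled ones and 17.3, 32.7 and 22.4 CPM in non-beta cells. Mouse 4 stood above the other mice in both beta fractions, at 2.30 and 2.05 times their mean. Even so, every beta library was above every non-beta one, with a log2 fold change of 0.80 (adjusted *p* = 0.00105, SE 0.15). Without mouse 3 the adjusted *p* was 0.0101, and 0.0188 without the mouse block. *Cacna1b* (CaV2.2, N-type) did not separate the fractions, with 12.4, 11.8, 11.8 and 14.1 CPM in the NNAT-positive-labelled libraries, 11.1, 11.7, 6.27 and 11.4 CPM in the NNAT-negative-labelled ones and 7.03, 11.9 and 6.83 CPM in non-beta cells (log2 fold change 0.36, adjusted *p* = 0.173, SE 0.20).

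*Cacna1e* encodes CaV2.3, the R-type pore, which has been studied in mouse beta cells. Here it was near the floor in beta cells, at 0.337, 0.144, 0 and 0.388 CPM in the NNAT-positive-labelled libraries and at 0 in 3 of the 4 NNAT-negative-labelled ones, with 0.328 CPM in that of mouse 4. Non-beta cells held 2.72, 1.56 and 0.592 CPM. Summed counts were 47 in the beta and 207 in the non-beta libraries, a rate ratio of 10.7 (95% interval 7.75 to 15.0, counting error only). The fitted log2 fold change was −5.48 (adjusted *p* = 0.00250, SE 1.16). That is 44.7-fold, outside the counting interval, so the 2 measures disagree on the size of the change. The adjusted *p* of *Cacna1e* rose to between 0.0158 and 0.0292 without mouse 1, 2 or 3 and without the mouse block.

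T-type channels open at low voltages and support rhythmic firing. All 3 of their pores were lower in beta cells, and no beta library reached the lowest non-beta library of any of them. *Cacna1g* (CaV3.1) held 0.899, 1.32, 1.20 and 1.85 CPM in the NNAT-positive-labelled libraries, 1.43, 0.792, 0.194 and 0.629 CPM in the NNAT-negative-labelled ones and 15.9, 12.6 and 8.44 CPM in non-beta cells, a log2 fold change of −3.69 (adjusted *p* = 3.69e-05, SE 0.42). *Cacna1h* (CaV3.2) held 3.51, 4.29, 4.35 and 5.83 CPM in NNAT-positive-labelled libraries and 0.205, 0.883, 0.721 and 1.97 CPM in NNAT-negative-labelled libraries, and the non-beta libraries 22.4, 20.6 and 11.1 CPM. Its log2 fold change was −3.49 (adjusted *p* = 2.46e-05, SE 0.37). *Cacna1i* (CaV3.3) gave 1.29, 0.768, 0.445 and 1.37 CPM, 0.102, 0.761, 0.111 and 0.848 CPM and 4.65, 8.08 and 2.55 CPM in the same order, with a log2 fold change of −3.29 (adjusted *p* = 0.000502, SE 0.54). Each of these calls stood under every alternative.

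Per kb of exon, the levels of pore genes can be set against one another. Summed over the L-type pores, the level per length was 16.0 ± 3.29 CPM per kb (mean ± SD, n = 4) in the NNAT-positive-labelled libraries, 15.0 ± 3.13 (n = 4) in the NNAT-negative-labelled ones and 6.84 ± 1.33 (n = 3) in non-beta cells. The T-type pores summed to 0.689 ± 0.156, 0.218 ± 0.105 and 3.58 ± 1.17 CPM per kb in the same order. *Cacna1d* alone made up 55.1% ± 3.42 (SD, n = 8 libraries of 4 mice) of the *Cacna1* mRNA of beta cells and 36.6% ± 4.54 (n = 3) of that of non-beta cells. *Cacna1a* followed in beta cells with 20.8% ± 3.78 and *Cacna1c* with 16.1% ± 1.46, whose ranges of 17.0% to 27.3% and 13.8% to 17.9% overlapped. In non-beta cells *Cacna1h* took 13.6% ± 3.67 and *Cacna1g* 9.11% ± 2.59, where beta cells held 1.24% ± 0.882 and 0.474% ± 0.214. The order of *Cacna1a* and *Cacna1c* rests on the scaling by length. By counts alone *Cacna1c* took 25.2% of the beta cell reads of this family, and 51.4% fell to *Cacna1d*.

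**Figure D3:**
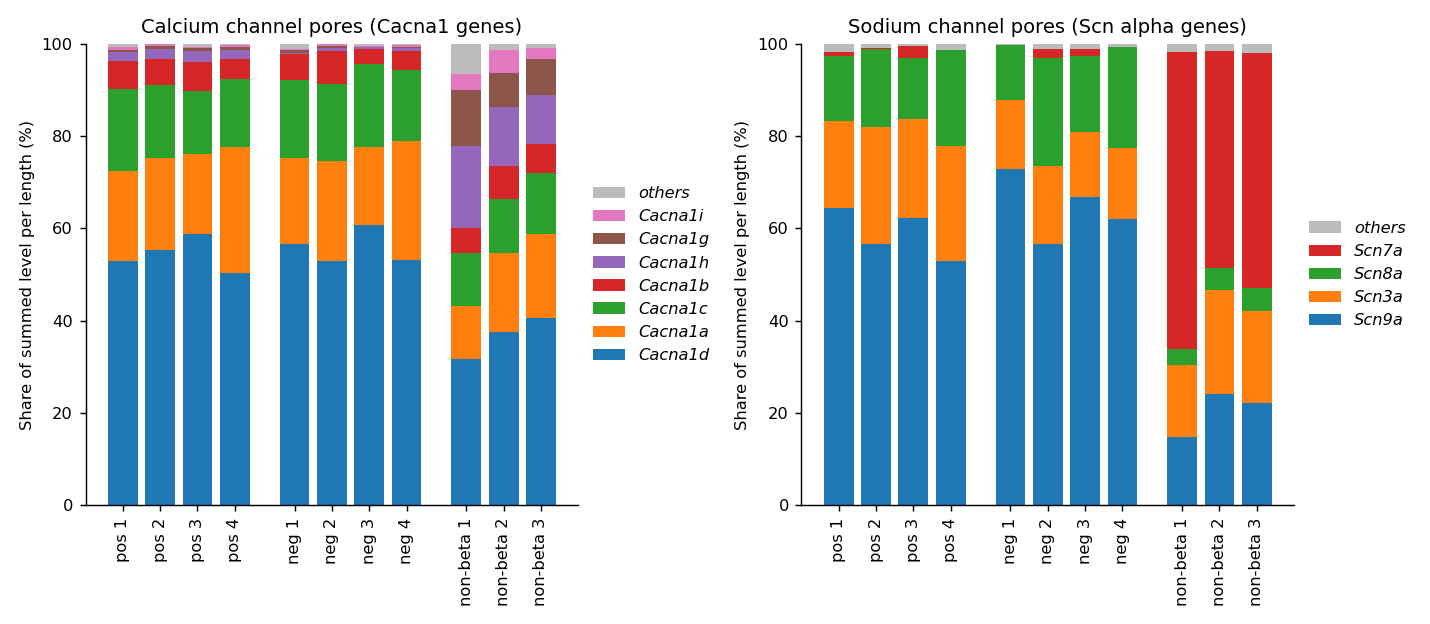
Share (%) of each pore gene in the summed level per length of its family, for the calcium channel pores (left) and the sodium channel pores (right). Each bar is a library, labelled by fraction and mouse. *Cacna1d* takes between 50.4% and 60.7% of the left bars in beta libraries, and *Scn7a*, at or below 2.57% in beta libraries, takes between 47.0% and 64.4% of the right bars in non-beta cells.

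Of the alpha2delta subunits, *Cacna2d1*, a binding site of gabapentin, was the most abundant calcium channel subunit per length in beta cells, at 21.6 ± 2.16 CPM per kb (n = 4) in the NNAT-positive-labelled libraries and 21.1 ± 1.20 (n = 4) in the NNAT-negative-labelled ones, against 11.5 ± 0.959 (n = 3) in non-beta cells. By library it held 303, 261, 271 and 238 CPM, 270.0, 249, 279 and 250.3 CPM and 131, 155 and 141 CPM in these groups, with no overlap between beta and non-beta and a log2 fold change of 0.93 (adjusted *p* = 1.69e-05, SE 0.09). The other alpha2delta genes ran the opposite way. *Cacna2d2* measured 2.30, 1.70, 4.61 and 3.24 CPM in the NNAT-positive-labelled libraries, 0, 1.52, 1.53 and 0.820 CPM in the NNAT-negative-labelled ones and 9.02, 12.1 and 11.8 CPM in non-beta cells, a log2 fold change of −2.87 (adjusted *p* = 0.00286, SE 0.62) that missed the threshold without mouse 2 (adjusted *p* = 0.0117) or mouse 3 (0.0211). *Cacna2d4* was at or below 0.759 CPM in all beta libraries and at 6.75, 6.65 and 7.50 CPM in non-beta cells, with a log2 fold change of −5.45 (adjusted *p* = 0.000181, SE 0.77). This fitted change is 43.8-fold, more than its mean CPM gave. Those means were 6.45% of the non-beta mean in NNAT-positive-labelled libraries and 3.26% in NNAT-negative-labelled ones. *Cacna2d3* lay between 0 and 1.01 CPM in beta cells and between 2.23 and 4.90 CPM in non-beta cells, without overlap, and did not pass the test (adjusted *p* = 0.0156). It was called lower with DESeq2 (adjusted *p* = 0.000373), without the filter (0.00852) and without the mouse block (0.00946).

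The cytoplasmic beta subunits, which bind the pore's first intracellular loop, were the calcium channel class nearest to equal levels. Their summed level per length was 19.3 ± 0.214, 17.4 ± 1.72 and 22.1 ± 4.06 CPM per kb in the NNAT-positive-labelled (n = 4), NNAT-negative-labelled (n = 4) and non-beta (n = 3) libraries. *Cacnb3* led them with 53.7, 56.5, 57.4 and 54.1 CPM, 46.3, 49.0, 60.1 and 47.1 CPM and 53.2, 82.3 and 72.2 CPM in that order, and the beta and non-beta values overlapped (log2 fold change −0.35, adjusted *p* = 0.0160, SE 0.10). That adjusted *p* fell below 0.01, with the same sign, under DESeq2, RLE size factors, no filter and without the insulin genes. *Cacnb2* held 46.4, 42.7, 44.9 and 42.2 CPM, 45.7, 32.8, 39.4 and 41.1 CPM and 27.3, 34.7 and 34.7 CPM in the same order (log2 fold change 0.37, adjusted *p* = 0.0283, SE 0.12). For *Cacnb1* the values were 9.05, 9.21, 7.70 and 11.4 CPM, 8.87, 4.81, 8.35 and 10.2 CPM and 9.82, 10.5 and 11.0 CPM (log2 fold change −0.40, adjusted *p* = 0.128, SE 0.20). *Cacnb4* stayed between 0 and 0.574 CPM in beta libraries and between 0.269 and 1.34 CPM in non-beta cells and was not called, except with DESeq2 (lower, adjusted *p* = 0.00779).

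Gamma subunits were sparse in beta cells. *Cacng4*, known as a partner of AMPA receptors, measured 2.30, 1.08, 1.60 and 1.51 CPM in the NNAT-positive-labelled libraries, 0.751, 0.274, 0.943 and 0.930 CPM in the NNAT-negative-labelled ones and 21.5, 20.5 and 26.2 CPM in non-beta cells. No beta library came near a non-beta one, with a log2 fold change of −4.50 (adjusted *p* = 4.94e-07, SE 0.28). *Cacng7*, of the same wider family, had 26 counts in the beta libraries, where 4 of 8 were at 0 and the highest was 0.410 CPM, and 8.11, 6.09 and 5.92 CPM in non-beta cells. The ratio of its count rates was 77.0 (95% interval 52.2 to 119, counting error only), and the fitted log2 fold change was −6.01 (adjusted *p* = 0.000788, SE 1.06). *Cacng5*, *Cacng2* and *Cacng3* stayed at or below 1.25 CPM in every library and were not called, with log2 fold changes of −2.92 (SE 1.34) for *Cacng5*, which held 0.365, 0.144, 0.0524 and 0.457 CPM, 0, 0, 0.111 and 0.601 CPM and 0.195, 1.25 and 0.780 CPM, −2.23 (SE 1.22) for *Cacng2* and 0.87 (SE 2.10) for *Cacng3*.

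Among the sodium channel pores, the fractions differed in which gene prevailed. *Scn9a* (NaV1.7), better known from pain-sensing neurones, was the leading sodium pore of beta cells, with 61.8% ± 6.38 (SD, n = 8) of the family's level per length there and 20.4% ± 4.92 (n = 3) in non-beta cells. Its own level overlapped between the fractions. It was 67.1, 52.7, 57.3 and 70.4 CPM in the NNAT-positive-labelled libraries, 51.0, 40.5, 55.3 and 70.5 CPM in the NNAT-negative-labelled ones and 35.2, 51.4 and 48.2 CPM in non-beta cells, with a log2 fold change of 0.26 (adjusted *p* = 0.176, SE 0.15). *Scn7a*, which encodes NaX, a sodium-sensing relative known mainly from glia and other non-neuronal cells, was read at 0.506, 0.120, 1.36 and 0 CPM in the NNAT-positive-labelled libraries, 0, 0.792, 0.666 and 0 CPM in the NNAT-negative-labelled ones and 88.1, 57.8 and 63.7 CPM in non-beta cells. Its log2 fold change was −7.01 (adjusted *p* = 4.75e-06, SE 0.53), and it made up 54.2% ± 9.09 of the sodium pore level of non-beta cells and 0.871% ± 0.998 of that of beta cells. The endothelial and mesenchymal marker lists stood lower still, at between 0.0198% and 0.100% of their non-beta level in the beta fractions, where *Scn7a* was at 0.711% and 0.522%. The 4 Schwann cell markers summed to between 22.6 and 30.5 CPM in non-beta cells, and which cells of the non-beta fraction held *Scn7a* was not tested.

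*Scn3a* (NaV1.3) lay between these patterns. By mean level per length it ranked after *Scn7a* and *Scn9a* in non-beta cells, after *Scn9a* and *Scn8a* in the NNAT-negative-labelled libraries and after *Scn9a* alone in the NNAT-positive-labelled ones. Single libraries departed from this order, as *Scn3a* exceeded *Scn8a* in the NNAT-negative-labelled library of mouse 1 (15.1% against 11.8% of the sodium pore level) and *Scn9a* in non-beta cells of mouse 1 (15.6% against 14.8%). It measured 23.5 ± 6.19 CPM (n = 4) in the NNAT-positive-labelled libraries, 12.6 ± 2.99 (n = 4) in the NNAT-negative-labelled ones and 41.8 ± 5.36 (n = 3) in non-beta cells, and the beta libraries did not overlap with the non-beta ones. Its log2 fold change between beta and non-beta cells was −1.46 (adjusted *p* = 5.65e-07, SE 0.09). *Scn8a* (NaV1.6), outside the rule for full values and picked once its values had been seen, took 17.3% ± 4.28 of the beta cell level and 4.39% ± 0.853 of the non-beta level. It lay between 10.2 and 33.9 CPM in beta and between 10.0 and 13.1 CPM in non-beta libraries and was not called (adjusted *p* = 0.0417). *Scn2a* lay between 0.109 and 0.937 CPM in beta and between 2.39 and 2.85 CPM in non-beta cells, without overlap, and missed the threshold at an adjusted *p* of 0.0152. It was called lower with DESeq2 (adjusted *p* = 0.00111), without the mouse block (0.00354) and without mouse 4 (0.00934). *Scn3a*, *Scn2a*, *Scn1a*, *Scn9a* and *Scn7a* form a cluster on chromosome 2 between positions 65457118 and 66784914 (GRCm38), in which *Scn1a*, between *Scn2a* and *Scn9a*, was not tested. The muscle *Scn4a* and the sensory neurone genes *Scn10a* and *Scn11a* were among the untested members, and *Scn10a* had no count in any library.

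The sodium channel beta subunits, single-pass proteins that also act in cell adhesion, were lower in beta cells for 3 genes. *Scn4b* had 2 counts in the 8 beta libraries together, both in the NNAT-positive-labelled library of mouse 2, and 7.46, 4.45 and 2.10 CPM in the non-beta libraries. Its count rates differed 717 times (95% interval 198 to 5934, counting error only), and the fitted log2 fold change of −9.06 (adjusted *p* = 0.000213, SE 1.00) missed the threshold with DESeq2 (0.0161). *Scn2b*, which lies next to it on chromosome 9, held 0.899, 0.624, 0.419 and 1.46 CPM, 0, 0, 0.305 and 0.875 CPM and 11.8, 9.75 and 5.70 CPM in the NNAT-positive-labelled, NNAT-negative-labelled and non-beta libraries, with a log2 fold change of −4.99 (adjusted *p* = 0.000321, SE 0.77). This fitted change is 31.8-fold, while the mean CPM of the 2 beta fractions was 9.35% and 3.24% of the non-beta mean. *Scn3b* was steadier, at 4.69, 4.44, 4.55 and 5.16 CPM, 3.00, 3.38, 2.22 and 2.82 CPM and 22.9, 24.0 and 18.6 CPM in the same order, with a log2 fold change of −2.59 (adjusted *p* = 6.48e-07, SE 0.17).

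Set against non-beta cells one at a time, the beta fractions gave similar numbers, and both used the same non-beta libraries. The limit on members that passed the filter only through the non-beta libraries holds here too. In the NNAT-positive-labelled libraries, 1 member was called higher (6.13% of all tested genes were) and 11 lower (15.5% were). In the NNAT-negative-labelled ones, 1 member was called higher (6.18% were) and 13 lower (17.1% were). *Cacna1d* was the higher one each time, with log2 fold changes of 1.19 (SE 0.16) and 1.09 (SE 0.16), and in the NNAT-negative-labelled libraries it lost the call without mouse 1 or mouse 3. Without mouse 3, the members called in the NNAT-positive-labelled libraries were 2 higher and 6 lower. Without mouse 2 the number called higher was 4 in these and 3 in the NNAT-negative-labelled ones.

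The comparison for which the sort was made, NNAT-positive-labelled against NNAT-negative-labelled libraries, called none of the 32 members in either direction. Of all tested genes, 0.0459% were called higher and 0% lower. At the adjusted *p* alone the count was 1 member higher and 0 lower, where 0.0517% and 0% of all genes were. Unadjusted *p* values under 0.05 were reached by 6 members, all higher in NNAT-positive-labelled libraries, and by 969 genes in all, of which 839 were higher. DESeq2 called 1 member, *Cacna1h*, among 80 genes called higher, and edgeR without the filter called the same member among 25. In the simulated counts, this test of edgeR recovered 60 of 109 genes changed by 1.5 on the log2 scale and 52 of 91 changed by 2. Those counts were drawn around 1 mean per gene over all 11 libraries and held no mouse effect. They differ in this from the real libraries, so the recovered shares do not give the power of the test there.

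*Scn3a* was the member that passed at the adjusted *p* alone. It measured 19.1, 23.0, 19.4 and 32.4 CPM in the NNAT-positive-labelled libraries of mice 1 to 4, 10.3, 11.8, 11.4 and 17.0 CPM in the NNAT-negative-labelled ones of the same mice and 36.3, 47.0 and 42.1 CPM in non-beta cells of mice 1 to 3. The beta fractions did not overlap, and the difference had the same sign in 4 of 4 mice (log2 fold change 0.89, adjusted *p* = 0.00764, SE 0.10), short of 2-fold. Over the alternatives its log2 fold change ran from 0.84 to 0.93 and its adjusted *p* from 5.92e-19 with DESeq2 to 0.375 without the mouse block. Leaving out mouse 1, 2, 3 or 4 gave 0.0556, 0.0936, 0.133 and 0.0905.

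Other members pointed the same way without passing. *Cacna1h* did not overlap between the beta fractions, with the values given above, and was higher in NNAT-positive-labelled libraries in 4 of 4 mice (log2 fold change 2.42, adjusted *p* = 0.0761, SE 0.41). Its adjusted *p* ran from 9.47e-07 with DESeq2 to 0.440 without mouse 2, and 158 bp of its exons lie opposite those of *Tpsg1*. *Scn3b* (log2 fold change 0.74, adjusted *p* = 0.302, SE 0.18) and *Cacng4* (1.19, adjusted *p* = 0.381, SE 0.31) were also higher in 4 of 4 mice, and their beta fractions did not overlap either. In all, 13 of the 32 tested members (40.6%) were higher in NNAT-positive-labelled libraries in 4 of 4 mice, as were 11.4% of all tested genes, and the median log2 fold change was 0.58 over the members and 0.05 over all genes. For the most abundant members the differences were small. The log2 fold change was 0.10 (SE 0.14) for *Cacna1d*, 0.03 (SE 0.13) for *Cacna1c*, 0.03 (SE 0.09) for *Cacna2d1*, 0.14 (SE 0.11) for *Cacnb3* and 0.21 (SE 0.15) for *Scn9a*. The sign of the *Cacna1c* and *Cacna2d1* values changed under other scalings.

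**Figure D4:**
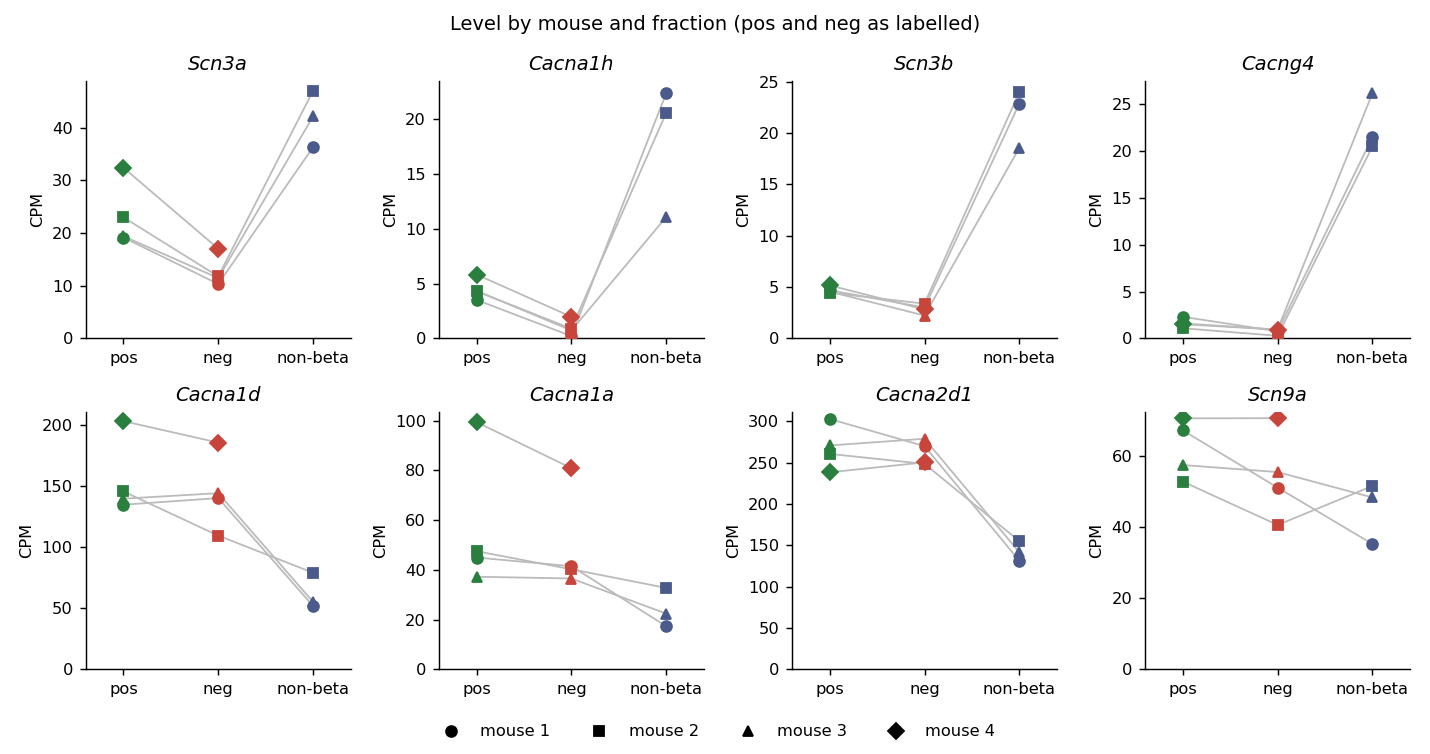
Level in CPM (linear axis from 0) of 8 members by mouse and fraction, where pos and neg are the NNAT-positive-labelled and NNAT-negative-labelled libraries. Symbols mark the mouse and lines join libraries of one mouse. *Scn3a*, *Cacna1h*, *Scn3b* and *Cacng4* fall from pos to neg in 4 of 4 mice and are highest in non-beta cells, and mouse 4 is highest for *Cacna1d* and *Cacna1a* in both beta fractions.

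Markers of other islet cells moved with these values. As a share of their non-beta level, the 5 alpha cell markers summed to 1.98% in the NNAT-positive-labelled libraries and 0.963% in the NNAT-negative-labelled ones, the 3 delta cell markers to 18.0% and 7.09%, and the PP cell markers to 11.5% and 4.40%. All 3 delta and both PP markers, and 3 of 5 alpha markers, were higher in NNAT-positive-labelled libraries in 4 of 4 mice, and no marker of these lists was without a count in the beta libraries as a whole. *Cacng4* stood at 7.14% and 3.19% of its non-beta level in these libraries, *Cacna1h* at 24.9% and 5.24%, *Scn3b* at 21.6% and 13.1%, and *Scn3a* at 56.1% and 30.2%. By contrast *Scn7a* and *Scn4b* were at or below 0.711% in both. The remaining lists stood at 66.3% and 69.1% (duct), 50.3% and 39.5% (Schwann), 11.3% and 11.8% (leukocyte), 1.47% and 0.436% (acinar), 0.750% and 0.304% (epsilon), 0.100% and 0.0198% (endothelial), and 0.0548% and 0.0471% (mesenchyme). The part of other cell types in these differences was not tested.

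Across mice, mouse 4 was the highest of the 4 in both beta fractions for 8 of the 17 members with a beta mean of at least 1 CPM (47.1%), and for 24.1% of the 12547 genes at that level. Relative to the mean of mice 1 to 3, *Cacna1a* was 2.30 times higher in NNAT-positive-labelled libraries and 2.05 times in NNAT-negative-labelled libraries. The values were 1.93 and 1.93 for *Scn8a*, 1.58 and 1.52 for *Scn3a*, 1.48 and 1.36 for *Cacna1c* and 1.45 and 1.41 for *Cacna1d*. *Cacna2d1* went the other way, at 0.857 and 0.942. Since mouse 4 had no non-beta library, its share in the beta against non-beta contrast was checked by leaving it out, which kept *Cacna1d* as the only member called higher and gave 15 members lower.

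Among 28 regulators of these channels, 25 were tested, and 2 were called higher and 10 lower in beta cells, beside 6.22% and 18.9% of all tested genes. The median log2 fold change was −0.76 over the list and −0.10 over all tested genes. The 5 with the largest changes were all lower. They included the small GTPases *Rrad* (6.80 ± 5.55 CPM in non-beta cells and 0.124 ± 0.161 CPM in NNAT-positive-labelled libraries) and *Rem1* (7.78 ± 1.16 and 0.0894 ± 0.120 CPM), both inhibitors of L-type currents, and the adaptor *Stac* (1.38 ± 0.923 CPM in non-beta cells, without a count in beta cells). *Rrad* and *Rem1* had no count in NNAT-negative-labelled libraries. Like *Stac*, they passed the filter only through the non-beta libraries and so could be called lower or not at all. The calcium-binding protein *Cabp2* was at 6.20 ± 2.99 CPM in non-beta cells and at 0.129 ± 0.171 and 0.0205 ± 0.0410 CPM in the beta fractions. *Cachd1*, an alpha2delta-like protein, gave 8.50 ± 1.99, 0.0967 ± 0.100 and 0.263 ± 0.349 CPM in the same order (mean ± SD, n = 3 non-beta and 4 in each beta fraction). None of the list was called between the beta fractions.

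The list of other cation channels, calcium stores and clearance held 41 genes, of which 38 were tested, and 8 were called higher and 5 lower, beside the same 6.22% and 18.9% of all tested genes. Its median log2 fold change was 0.39. *Trpm5*, a calcium-activated cation channel, had 155 ± 20.8 CPM in NNAT-positive-labelled libraries, 178 ± 15.6 CPM in NNAT-negative-labelled libraries and 8.46 ± 5.58 CPM in non-beta cells, a log2 fold change of 4.45 (adjusted *p* = 7.37e-07, SE 0.29). The mitochondrial sodium/calcium exchanger *Slc8b1* changed by −2.71 (adjusted *p* = 2.17e-05, SE 0.29) and the inositol trisphosphate receptor *Itpr1* by −2.64 (adjusted *p* = 1.48e-07, SE 0.14). The skeletal muscle calcium release channel *Ryr1* was at 1.88 ± 1.49 CPM in non-beta cells and near the floor in beta cells. It too passed the filter only through the non-beta libraries. No gene of this list was called between the beta fractions.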

How the data were processed

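RNA from FACS-sorted islet cells (20 ng per library) was made into poly(A) directional libraries and read as 75 bp pairs. Per the labels, the authors aligned reads with STAR 2.7.1a to mm10. They counted reads on gencode genes and deposited raw counts, whole numbers per gene with no normalisation, and their own tests used DESeq2 1.32.0. The strand setting of the counting is not given in the sources used here.

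Counts were analysed with edgeR 4.0.16 in R 4.3.3. All 11 libraries entered 1 quasi-likelihood fit with TMM normalisation, filterByExpr by fraction and the mouse as a block. Benjamini-Hochberg adjustment ran over 17424 genes. A call needed an adjusted *p* under 0.01 together with over 2-fold change, the study's threshold. CPM used TMM-scaled library sizes. Level per length was CPM per kb of the union of exons in gencode release M21 (GRCm38), to which 55141 identifiers matched. Each SE is the log2 fold change over the root of its *F* statistic. Same-mouse beta libraries deviated together (mean *r* 0.456, range 0.299 to 0.775, 4 pairs) and those of different mice did not (mean *r* −0.140, 12 pairs), and the study gives each replicate as 1 mouse. The non-beta libraries were not part of this check, so their match to the beta libraries of a mouse rests on the replicate number. None of the 55 library pairs was identical. On simulated counts (16843 genes tested, no mouse effect added) edgeR called 1 unchanged gene in the contrast of the beta fractions. Between beta and non-beta cells it called 2 and recovered 47 of 96 genes changed by 1.5 and 62 of 104 changed by 2 on the log2 scale. DESeq2 1.42.0 called 32 and 31 unchanged genes.

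Members, lists and tests were chosen with earlier results of these data known. Full values were given for up to 3 tested members per class with the highest level per length, for members called between the beta fractions and for up to 12 called between beta and non-beta cells. In the pathway lists, up to 5 called genes were named by size of change. A table in the study's supplement heads the beta fractions the other way round from the labels, and the labels were kept. The study gives an age of 8 weeks for this experiment in its text and the labels 10. Protein sequences were not used here. Some items are not reported here.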

Additional observations from a re-analysis of the deposited data

Results flagged for a closer look

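Of the 62 groups of 4 beta libraries examined (31 members in 2 fractions), 10 held a library far from the other 3 by Dixon's criterion at the 95% level. Chance alone meets it in about 1 group in 20 where values spread normally, a rate that does not hold for sparse counts. With no count in 3 libraries, any count in the remaining library meets the criterion. That was so for *Cacna1e*, *Cacna1s* and *Cacng3* in NNAT-negative-labelled cells and for *Scn4b* in NNAT-positive-labelled cells. In mouse 4, *Cacna1a* was highest in both fractions (99.5 CPM in NNAT-positive-labelled cells and 80.9 CPM in NNAT-negative-labelled cells), as was *Cacna1d* at 203 CPM in the former. In mouse 3, *Cacna1b* was lowest in NNAT-negative-labelled cells (6.27 CPM). The other such libraries were of sparse genes, *Cacna1e* (0.328 CPM) in mouse 4, *Cacna1s* (0.0277 CPM), *Cacng2* (0.388 CPM) and *Cacng3* (0.0832 CPM) in mouse 3 in NNAT-negative-labelled cells, and *Cacng3* (lowest, 0.0228 CPM, mouse 4) and *Scn4b* (0.0480 CPM, mouse 2) in NNAT-positive-labelled cells.

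*Scn3a* differed between the beta fractions at the adjusted *p* alone, by 0.89 on the log2 scale (adjusted *p* = 0.00764 by edgeR, over the alternatives 5.92e-19 to 0.375, higher in NNAT-positive-labelled cells in 4 of 4 mice).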

How the results depend on the processing

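Between beta and non-beta cells, the alternatives of the named members were first sorted by an adjusted *p* of 0.01 alone, whatever the fold change. Of these, 208 kept their direction and side of that limit, 13 missed it, 4 (all *Cacnb3*, under 2-fold) newly passed it and none reversed. Members called higher numbered 2 without the mouse block (no pairing of the fractions), 1 to 3 when a mouse was left out and 6 at an adjusted *p* below 0.05 with no fold threshold, a rule that called 3894 genes higher and 5253 lower. For the NNAT-positive-labelled libraries the higher count was 2 without the block, 1 to 4 without a mouse and 6 under that rule, and the lower count 6 to 10 without a mouse. For the NNAT-negative-labelled ones the higher count was 2, 0 to 3 and 4. Between the beta fractions, members called higher numbered 1 with DESeq2, without the filter and under that rule. All genes called higher there numbered 1 without the block, 80 with DESeq2, 25 without the filter, 0 to 5 without a mouse and 18 under that rule, and those called lower 6 with DESeq2 and 1 without the filter. The adjusted *p* of *Scn3a* was 0.00764 with the block and 0.375 without it.

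The log2 fold change between the beta fractions of *Cacna1c* was −0.0074 with DESeq2, −0.0074 with RLE size factors, −0.0042 without the filter, −0.0017 without the insulin genes, −0.0055 with beta libraries alone and −0.043 to 0.17 without a mouse. For *Cacna2d1* it was −0.0057, −0.0056, −0.0023 under the first 3 settings, −0.0090 with beta libraries alone and −0.015 to 0.058 without a mouse. Without a mouse it ran from −2.27 to 0.018 for *Cacna1s*, −2.41 to 0.75 for *Cacng7*, −0.030 to 2.50 for *Scn4b* and −0.48 to 1.38 for *Scn7a*. The causes were not tested. RLE scaling moved the median of all genes between beta and non-beta cells by −0.08. Members below about 1 CPM in beta cells rest on few counts, and a missing difference there was not detectable at this depth.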
